A study of Mus musculus with 6 samples.

Results

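The expression of 10 genes known from blood stem and progenitor cells (Kit, Flt3, Met, Cd34, Cd93, Sox4, Myb, Gata2, Gfi1 and Meis1) was examined in bone marrow monocytes (BMDM) and brainstem microglia (BSM). The genes were chosen by symbol, and all 10 were found in both deposited tables, that is, among 35237 entries quantified with Cufflinks and 36536 quantified with ALEXA-Seq. The study had selected Met, Cd93 and Kit as higher in BMDM from data that include these libraries, so their direction was known beforehand. Both groups came from C57BL/6 mice at 6 weeks of age and no treatment is named, with 3 RNA-Seq libraries in each group, and replicate 1 of each cell type was from male and replicates 2 and 3 from female mice. The cells of several mice were pooled for each library, and they were dissociated, enriched on a Percoll gradient and sorted by flow cytometry. BMDM were sorted as CD11b+ CD45high CD115+ Ly6G- and BSM as CD11b+ CD45low CD115low Ly6G- cells. The gates used none of the 10 genes, and CD115 is carried by monocyte progenitors as well as by monocytes.

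Blood cells arise in the marrow from rare stem cells, which pass through multipotent and then lineage-restricted progenitors before they leave the cell cycle as mature cells. Progenitors depend on receptor tyrosine kinases such as Kit, the receptor of stem cell factor, and Flt3, the receptor of Flt3 ligand, and on transcription factors such as Myb, Gata2, Gfi1 and Meis1, most of which are lowered as a cell matures. Microglia descend from yolk sac progenitors that enter the brain before birth, and they are maintained there without marrow progenitors.

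Most of these genes were expressed in BMDM, but the set did not behave as a unit of marrow expression. The values are FPKM, fragment numbers corrected for transcript length and for library size. In 6 of the 10 genes (Kit, Flt3, Met, Cd93, Myb and Gfi1) every BMDM library was above every BSM library, in 2 (Cd34 and Sox4) every BSM library was above every BMDM library, and in Meis1 and Gata2 the groups overlapped. Of the 21167 genes above 0 in at least 1 library, 30% had every BMDM library above every BSM library and 7.32% the reverse. The name stem and progenitor genes in marrow monocytes therefore did not describe Cd34 and Sox4, which were higher in BSM, nor Gata2, which was listed at 0 in 5 of the 6 libraries.

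**Figure D1:**
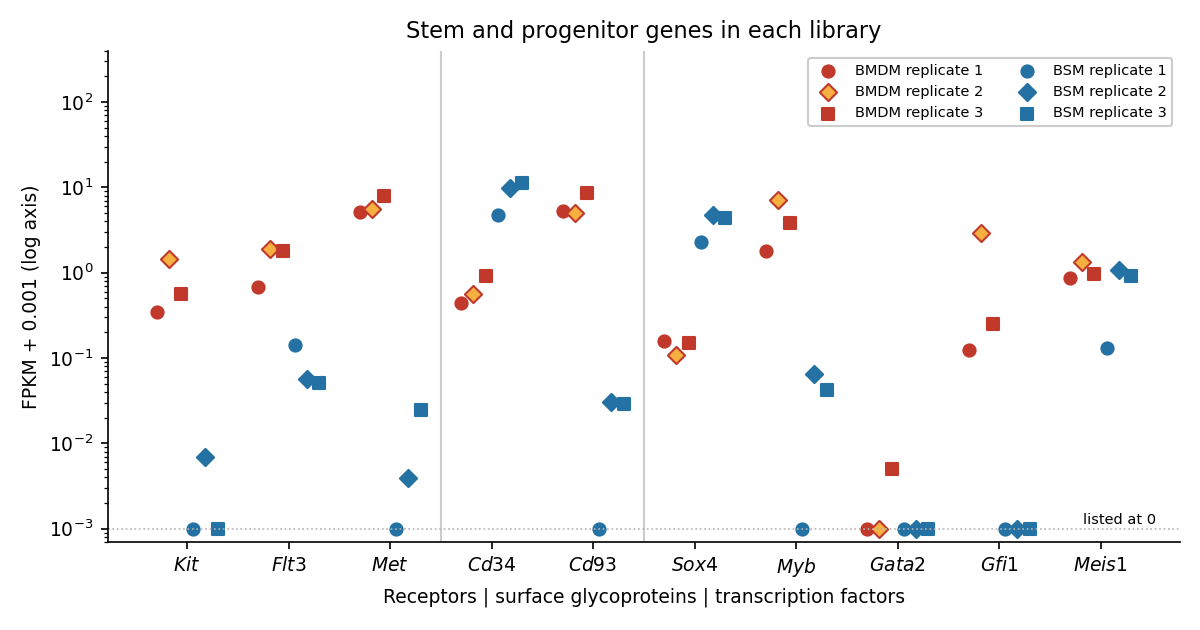
FPKM of the 10 genes in each of the 6 libraries, on a log axis after adding 0.001, with BMDM in red or orange and BSM in blue. Points on the dotted line are listed at 0. Met and Cd93 have BMDM points near 5 to 9 with BSM points under 0.03, Cd34 and Sox4 have the BSM points on top, and BMDM replicate 2 (orange) stands above the other BMDM libraries in Kit, Myb and Gfi1.

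The promoters of some of the genes are shown here to place their expression patterns beside their sequences. They are not those with the widest gap between the cell types, as Met is not among them. The 250 bases upstream of the annotated start were taken from RefSeq (mouse build GRCm38.p6) and are written 5′ to 3′ on the strand of the gene, and a window was matched for 9 of the 10 genes, all but Cd93. Kit, Gata2 and Gfi1 had 2 windows each, of which only the first was searched and shown or counted. Kit, Myb and Gfi1 are shown because they were highest in 1 BMDM library together, and Cd34 and Sox4 because they were higher in BSM. Capitals mark matches on either strand to GATAA (the core bound by GATA factors), AACNG (Myb), TGACAG (Meis1), AACAAT (Sox factors) or AAATCA (Gfi1).
Kit (chr5:75574737-75574986, plus strand): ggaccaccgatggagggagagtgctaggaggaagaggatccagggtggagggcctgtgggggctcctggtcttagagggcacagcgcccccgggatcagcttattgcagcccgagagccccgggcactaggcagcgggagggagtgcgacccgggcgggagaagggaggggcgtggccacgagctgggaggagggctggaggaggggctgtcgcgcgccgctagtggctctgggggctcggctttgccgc
Myb (chr10:21160985-21161234, minus strand): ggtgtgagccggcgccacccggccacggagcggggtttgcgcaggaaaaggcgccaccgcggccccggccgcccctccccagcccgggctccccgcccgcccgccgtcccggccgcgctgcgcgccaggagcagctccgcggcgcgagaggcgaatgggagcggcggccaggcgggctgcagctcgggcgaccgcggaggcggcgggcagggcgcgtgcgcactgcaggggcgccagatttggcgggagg
Gfi1 (chr5:107725806-107726055, minus strand): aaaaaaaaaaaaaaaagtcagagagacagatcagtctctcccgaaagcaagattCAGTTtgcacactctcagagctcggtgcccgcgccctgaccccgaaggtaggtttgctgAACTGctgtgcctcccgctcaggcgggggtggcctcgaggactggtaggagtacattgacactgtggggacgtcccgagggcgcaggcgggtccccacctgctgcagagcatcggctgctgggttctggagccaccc
Cd34 (chr1:194938571-194938820, plus strand): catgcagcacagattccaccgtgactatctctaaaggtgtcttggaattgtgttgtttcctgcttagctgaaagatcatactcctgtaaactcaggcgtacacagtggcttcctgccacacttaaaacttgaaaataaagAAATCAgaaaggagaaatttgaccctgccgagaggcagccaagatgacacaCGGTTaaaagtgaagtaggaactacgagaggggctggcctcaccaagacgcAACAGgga
Sox4 (chr13:28953700-28953949, minus strand): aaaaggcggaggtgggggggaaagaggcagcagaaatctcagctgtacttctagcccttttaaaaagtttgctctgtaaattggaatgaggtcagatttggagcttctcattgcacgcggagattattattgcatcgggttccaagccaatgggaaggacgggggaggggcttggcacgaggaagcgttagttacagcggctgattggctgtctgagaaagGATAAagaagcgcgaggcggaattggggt

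The searched windows of Kit, Myb and Gfi1 shared none of these motifs. No motif was found in those of Kit and Myb, and that of Gfi1 had 2 matches to AACNG. This motif was found in 6 of the 9 windows and in 74.1% of 27025 promoters of the same length. Cd34 held 1 AAATCA, which was present in 12.7% of promoters, and Sox4 held 1 GATAA, which was present in 23% of promoters. TGACAG was found in none of the 9 windows and in 16% of promoters. No window held AACAAT either, which 9.65% of promoters did. The GC content was 81.2% in Myb, 70.8% in Kit and 59.2% in Gfi1, against 46.4% in Cd34, 50.8% in Sox4 and a median of 52% over all promoters. The windows of Myb and Kit held 40 and 17 CpG dinucleotides, and that of Cd34 held 6. These matches are letters in a window and not measured binding sites.

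Before the comparisons, 2 libraries stood apart from the rest of their group. BSM replicate 1 was listed at 0 for 46.9% of the 21167 genes, against 21.1% and 19.8% in BSM replicates 2 and 3, and for 6 of the 10 genes studied. BMDM replicate 2 held more RNA of several other marrow lineages than the other BMDM libraries, as given below. The study lists it as the BMDM library with the fewest sorted cells, the lowest RNA concentration and the lowest RNA integrity number. Its share of mapped reads is the lowest of the 6 libraries in the study. The study also lists BSM replicate 1 as the library with the lowest RNA concentration and by far the lowest RNA integrity number of the 6. The labelled cell types matched their markers. All 12 microglia genes tested were higher in BSM, beside 9.22% of all genes tested. Of 12 mature monocyte genes 11 were higher in BMDM, beside 45.3% of all genes tested, the other being Csf1r (higher in BSM). The FPKM of all genes summed to between 163199 and 194184 in BMDM and between 68288 and 75021 in BSM, so that levels were compared with and without rescaling. An FPKM of 0 was not taken as proof of absence, and no fold is given against libraries at 0.

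Among the receptors, Met was the most abundant in BMDM. Met, the receptor of hepatocyte growth factor, acts in the growth and movement of epithelial and some blood cells, and lies at chr6:17413800-17523980 (mm9, as all gene positions here). Its FPKM was 5.11, 5.63 and 7.85 in BMDM replicates 1 to 3. In BSM it was listed at 0 in replicate 1 and was 0.00291 and 0.0233 in replicates 2 and 3. The groups did not overlap, and the lowest BMDM library was 219 times the highest BSM library. On log2(FPKM + 1) the difference was 2.82 (standard error 0.27, limma with Benjamini-Hochberg adjusted p = 0.000117 over 6364 genes). The ALEXA-Seq values, a linear signal without a named unit, were 47.3, 51.8 and 74.9 in BMDM against 0, 0.0549 and 0.279 in BSM.

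Flt3, which supports multipotent and dendritic cell progenitors, was at a lower level (chr5:148142317-148212065). Its FPKM was 0.686, 1.90 and 1.80 in the BMDM libraries and 0.139, 0.0552 and 0.0496 in the BSM libraries. All BMDM libraries were above all BSM libraries, and the ratio of the group means was 18.0. Flt3 never reached an FPKM of 3, so it was tested with a lower limit, among 9637 genes that reached an FPKM of 1 in a library, where the difference was 1.15 on log2(FPKM + 1) (standard error 0.27, limma adjusted p = 0.00992). With quantile normalization of these genes the difference was 0.62 and no longer passed the test (limma adjusted p = 0.125).

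Kit, whose signal keeps stem cells, mast cells and early progenitors alive, was weakly expressed (chr5:75970941-76052747). Its FPKM was 0.347, 1.46 and 0.562 in BMDM, and in BSM it was listed at 0 in replicates 1 and 3 and was 0.00584 in replicate 2. The groups did not overlap, but the BMDM libraries differed 4.22-fold among themselves. Among genes with an FPKM of at least 1 the difference was 0.79 on log2(FPKM + 1) (standard error 0.27, limma adjusted p = 0.0420). Of 10 alternative settings for this test 8 gave an adjusted p above the threshold, including quantile normalization (limma adjusted p = 0.107) and the omission of BSM replicate 3 (limma adjusted p = 0.0975). Without BMDM replicate 2 the difference was 0.53 and passed the test (limma adjusted p = 0.0193).

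The ligands of Kit and Met were low in both cell types, and that of Flt3 was not matched in the FPKM table. Kitl, the ligand of Kit, was listed at 0 in all BMDM libraries and was 0.231, 1.05 and 1.14 in BSM. Hgf, the ligand of Met, was 0.710, 1.25 and 1.16 in BMDM and 0.0374, 0.374 and 0.375 in BSM. Of 20 ligands, related receptors and signalling partners found in the table, 15 reached an FPKM of 3 and 4 of them were higher in BMDM and 3 in BSM, with 8 that did not pass the test and a median log2 difference of 0.25. The median over all 6364 genes tested was 0.81, of which 45.3% were called higher in BMDM and 9.22% in BSM. The higher ones in BMDM included Ptpn6, a phosphatase that damps Kit signalling (17.1, 29.4 and 18.9 in BMDM against 2.66, 6.84 and 5.96 in BSM), and Cbl, a ubiquitin ligase that acts on activated receptors (46.2, 50.3 and 44.4 against 20.4, 16.6 and 16.3). Gab1, an adaptor of Met, was 1.00, 1.14 and 1.06 in BMDM and 2.59, 4.73 and 4.38 in BSM and was among the 3 higher in BSM.

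The surface glycoproteins split in direction. Cd93, a lectin-like protein found on early progenitors, monocytes and endothelium, had an FPKM of 5.25, 4.97 and 8.53 in BMDM, and in BSM it was listed at 0 in replicate 1 and was 0.0295 and 0.0278 in the others (chr2:148262376-148269299). The lowest BMDM library was 168 times the highest BSM library. The difference on log2(FPKM + 1) was 2.80 (standard error 0.28, limma adjusted p = 0.000172).

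Cd34, the sialomucin by which human and mouse stem and progenitor cells are sorted, and which is also made by endothelium, went the other way (chr1:196765080-196787475). Its FPKM was 0.445, 0.559 and 0.922 in BMDM and 4.72, 9.95 and 11.3 in BSM. Every BSM library was above every BMDM library, and BSM replicate 1 was the lowest of the BSM libraries at 0.444 times the mean of the other BSM libraries. The mean was 13.5 times higher in BSM, and the difference on log2(FPKM + 1) was -2.49 (standard error 0.34, limma adjusted p = 0.000714). The ALEXA-Seq values were 8.31, 9.76 and 15.9 in BMDM and 127.6, 210.3 and 222.5 in BSM. In rank, Cd34 was above 80.7%, 93.4% and 94.5% of the genes detected in BSM replicates 1 to 3. It was above 37.5% to 52.1% of those detected in the BMDM libraries.

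Endothelial RNA was low in both groups where Cd34 differed. The summed FPKM of 10 endothelial markers was 2.37 to 4.00 in BMDM and 1.31 to 2.94 in BSM, and none of the 10 reached an FPKM of 3. Within this list, Cdh5 was at most 0.0199 in BSM, Tek at most 0.00335, and Cldn5 and Robo4 were listed at 0 in the BSM libraries. These markers made up little of the BSM sums, which came mostly from markers not named here. The part of endothelial RNA in the Cd34 values was not tested. Of other brain cells, neuron and oligodendrocyte markers summed to 1.08 to 1.16 in BSM, most of it Mbp, which was higher in BMDM. Astrocyte markers summed to 5.34 to 9.52 in BSM, nearly all of it Slc1a3, while Gfap was listed at 0 in all BSM libraries. A deposited entry without a symbol (ENSMUSG00000086469) overlaps Cd34 and was 0.144, 1.62 and 1.95 in BSM and at most 0.0480 in BMDM. Whether reads were assigned by strand is not given in the sources used here, so reads of the overlapping entries cannot be told apart.

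Sox4 was the other gene higher in BSM. Sox4, a transcription factor of progenitors in many tissues including lymphoid precursors and the nervous system, had an FPKM of 0.157, 0.107 and 0.147 in BMDM and 2.28, 4.71 and 4.40 in BSM (chr13:29040788-29045582). The groups did not overlap, and the mean was 27.7 times higher in BSM. The difference on log2(FPKM + 1) was -2.03 (standard error 0.31, limma adjusted p = 0.00132). In each BSM library Sox4 was below Cd34, and BSM replicate 1 was again the lowest, at 0.50 times the mean of the others.

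Myb, which keeps progenitors proliferating and falls as they mature, had the highest level in BMDM among the transcription factors of the 10 (chr10:20844736-20880790). Its FPKM was 1.78, 7.17 and 3.84 in BMDM, and in BSM it was listed at 0 in replicate 1 and was 0.0645 and 0.0407 in the others. The groups did not overlap, and the lowest BMDM library was 27.6 times the highest BSM library. The difference on log2(FPKM + 1) was 2.21 (standard error 0.41, limma adjusted p = 0.00318), and it was 1.83 without BMDM replicate 2 (limma adjusted p = 0.00451).

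Gfi1, a repressor that steers progenitors to the granulocyte lineage and restrains stem cell division, was listed at 0 in all BSM libraries (chr5:108145679-108154730). In BMDM its FPKM was 0.124, 2.88 and 0.248, so that 1 library held most of the signal. All BMDM libraries were above 0, but the difference did not pass the test at an FPKM of at least 1 (0.82 on log2(FPKM + 1), standard error 0.45, limma adjusted p = 0.170). Leaving out BMDM replicate 2 lowered the difference to 0.24 (limma adjusted p = 0.107). In the ALEXA-Seq values Gfi1 did not pass with all libraries (difference 3.03, limma adjusted p = 0.0589). It passed without BMDM replicate 2 (1.83, limma adjusted p = 0.00955), without BMDM replicate 1 (3.79, limma adjusted p = 0.0386) and with a pseudocount of 0.1 (6.05, limma adjusted p = 0.0116), and under the other 8 alternatives it did not.

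Meis1 did not separate the cell types. Meis1, a homeodomain protein that sustains stem cells together with Hox and Pbx proteins, had an FPKM of 0.857, 1.34 and 0.961 in BMDM and 0.129, 1.09 and 0.911 in BSM (chr11:18780433-18918961). BSM replicates 2 and 3 lay within the range of BMDM, and BSM replicate 1 lay below it. The difference on log2(FPKM + 1) was 0.31 (standard error 0.29, limma adjusted p = 0.404), and its sign turned with quantile normalization (-0.25) and with libraries scaled to the same sum (-0.27). Neither rescaled difference passed the test.

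Gata2, a factor of stem cells, mast cells and early erythroid and megakaryocyte progenitors, was listed at 0 in all libraries except BMDM replicate 3, where it was 0.00395 (chr6:88148328-88156483). The ALEXA-Seq value was above 0 in the same library alone, at 0.0749. No comparison of Gata2 between the cell types was detectable at these levels.

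**Figure D2:**
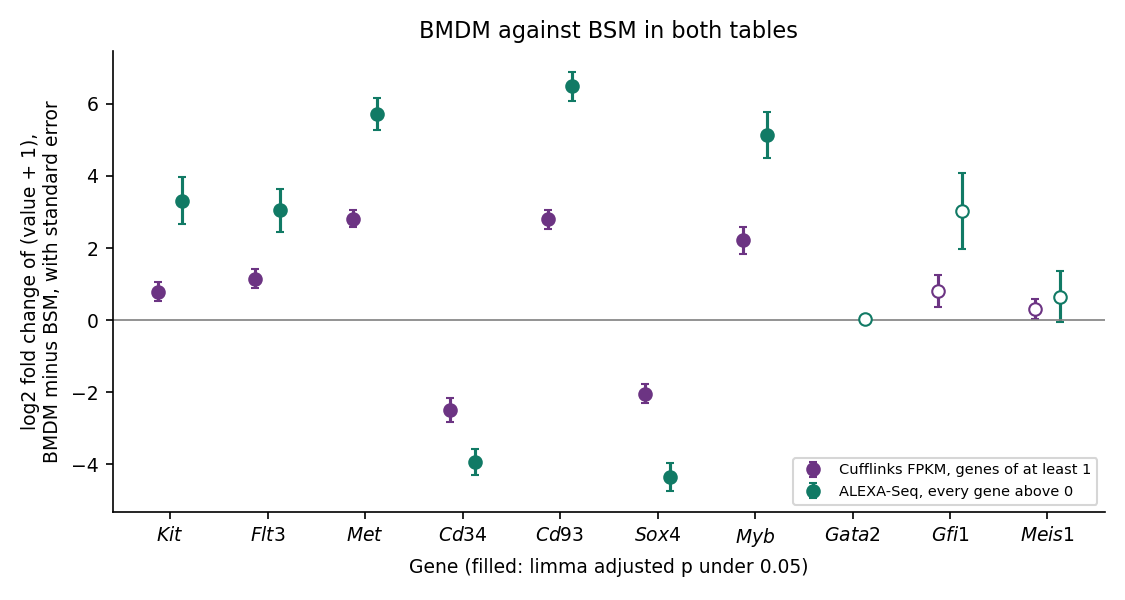
Log2 fold change between BMDM and BSM with its standard error (n = 3 libraries in each group) for the Cufflinks FPKM of genes with at least 1 FPKM and for the ALEXA-Seq values of every gene above 0, after adding 1 to each value. Filled points passed the limma test. Cd34 and Sox4 lie below 0 in both tables, Met, Cd93, Myb, Flt3 and Kit lie above 0, and Gfi1 and Meis1 are open in both; Gata2 is drawn for ALEXA-Seq alone because it never reached 1 FPKM.

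Counted over the tests, 5 of the 10 genes reached an FPKM of 3 and all 5 passed, with 3 higher in BMDM (Met, Cd93 and Myb) and 2 higher in BSM (Cd34 and Sox4). Those genes reached the limit through the group in which they were high, so the count is a description and is read beside the 45.3% and 9.22% of all genes tested. At an FPKM of at least 1, 9 genes were tested, with 5 higher in BMDM and 2 in BSM, where 37.2% and 7.66% of 9637 genes were called. In the ALEXA-Seq values 3 genes were higher in BMDM and 2 in BSM among the 6 that entered the test, beside 37.1% and 10.9% of 6364 genes. Without that limit all 10 entered, with Kit and Flt3 added to those higher in BMDM, giving 5 and 2 beside 10.5% and 3.83% of 22980 genes, and the 5 became 3 without BMDM replicate 3, BSM replicate 2 or BSM replicate 3. The share of genes called higher in BMDM depended on the scaling. It was 2883 against 587 higher in BSM on FPKM as deposited, 1378 against 1227 with quantile normalization and 968 against 1585 with libraries scaled to the same sum, while Met, Cd93, Myb, Cd34 and Sox4 passed in the same direction in all 3. An exact two-sided permutation test of a single gene cannot go below 0.1 with 3 libraries against 3. In bulk libraries fewer expressing cells and less RNA per cell cannot be told apart.

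The order of the levels differed between the cell types, and FPKM allows it to be read across genes because it is per length. In BMDM the means were 6.25 ± 1.98 for Cd93, 6.19 ± 1.46 for Met and 4.26 ± 2.72 for Myb (SD, n = 3), whose ranges overlapped. Flt3 (1.46 ± 0.675), Gfi1 (1.09 ± 1.56), Meis1 (1.05 ± 0.256), Kit (0.791 ± 0.593) and Cd34 (0.642 ± 0.249) followed, and neighbours in this order were not separated by their ranges. Sox4 (0.137 ± 0.0264) lay below the range of its neighbour Cd34. In BSM the order began with Cd34 (8.65 ± 3.47), Sox4 (3.79 ± 1.32) and Meis1 (0.710 ± 0.510), and no other gene of the set was above 0.14 in any BSM library.

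Within BMDM, replicate 2 differed from replicates 1 and 3 in a subset of the genes. Gfi1 was 15.5 times, Kit 3.22 times and Myb 2.55 times the mean of replicates 1 and 3. On log2(FPKM + 0.1) their differences were 3.42, 1.52 and 1.42. These 3 of 10 genes were at least 2-fold higher, beside 13.1% of 12418 genes with a mean FPKM of at least 0.1 in BMDM, and none of the 10 was 2-fold lower, beside 9.53% of genes. The ALEXA-Seq values gave the same 3 genes, at 15.9 times for Gfi1, 3.48 times for Kit and 2.79 times for Myb, beside 13.4% of 12545 genes, and none was 2-fold lower, beside 10.1%. Against replicate 3 alone Gfi1 and Kit remained over 2-fold higher (3.10 and 1.24), and Myb was 0.88. A single library has no replicate, so no test was made.

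Replicate 2 was also the highest BMDM library for Meis1 and Flt3, by less. Meis1 was 1.48 times the mean of replicates 1 and 3 (1.38 times in ALEXA-Seq). Flt3 was 1.53 times the mean of replicates 1 and 3, but replicate 3 was itself 2.63 times replicate 1, and Flt3 in replicates 2 and 3 was nearly equal. Cd93, Met and Cd34 were highest in replicate 3, and Sox4 was lowest in replicate 2 at 0.704 times the mean of the others. Over the 10 genes the median difference was 0.25, beside 0.16 for all genes. When replicate 1 was set against replicates 2 and 3, the medians were -0.48 for the 10 genes and -0.26 for all genes, and for replicate 3 they were 0.10 and 0.09. In BMDM replicate 1, Kit, Flt3, Cd34, Met, Myb, Gfi1 and Meis1 were at their lowest level.

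**Figure D3:**
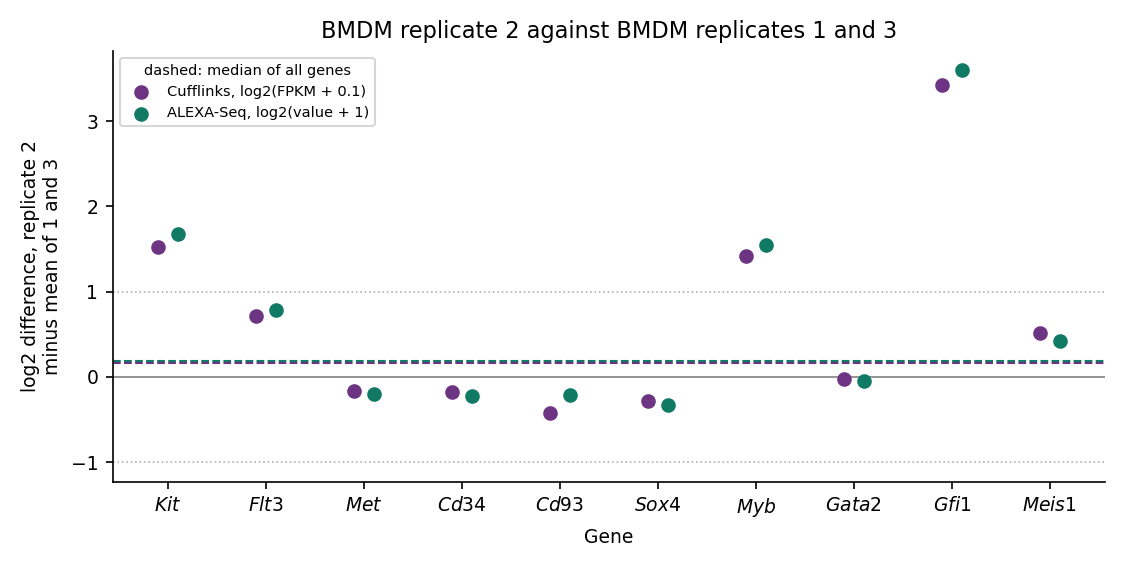
Log2 difference between BMDM replicate 2 and the mean of BMDM replicates 1 and 3 for each gene, from FPKM and from ALEXA-Seq values. Dashed lines are the medians over all genes (0.16 and 0.19) and dotted lines mark 2-fold. Gfi1, Kit and Myb are above the upper dotted line in both tables and no gene is below the lower one.

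Genes of granulocyte and monocyte progenitors were high in the same library as Kit, Myb and Gfi1. Of the 14 genes of this list found in the table, 7 were at least 2-fold higher in replicate 2 and none 2-fold lower, beside 13.1% and 9.53% of all genes, and their summed FPKM was 103.7, 372.0 and 153.4 in BMDM replicates 1 to 3. Mpo, the peroxidase first made in promyelocytes, was 32.7, 181.0 and 67.1, and Elane, neutrophil elastase, was 9.75, 56.0 and 10.7. For both, replicate 2 was the highest library. Against BSM, 5 of the 11 genes tested were higher in BMDM and 1 in BSM, beside the 45.3% and 9.22% of all genes tested, so that the share called was near the background with all libraries. Without BMDM replicate 2 these numbers were 7 and 1, beside 2313 and 507 of 6364 genes. The share called higher in BMDM was then larger in the list than over all genes. All Elane values in BSM were listed at 0, and Mpo there was at most 0.00913.

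Markers of other marrow lineages were also highest in replicate 2. The summed FPKM of 12 neutrophil markers was 40.5, 321.4 and 45.1 in BMDM replicates 1 to 3, and 10 of the 11 with a mean FPKM of at least 0.1 in BMDM were at least 2-fold higher in replicate 2. Ngp, a granule protein of immature neutrophils, was 2.44, 77.1 and 3.44, whereas Ly6g, the antigen used to gate neutrophils out, was 0.293 in replicate 2 and listed at 0 in the others. Eosinophil markers summed to 5.86, 90.5 and 2.96, erythroid markers to 10.4, 52.6 and 12.5, B lineage markers to 0.659, 12.8 and 1.93, and basophil and mast cell markers to 0.822, 5.31 and 0.869. Within the basophil and mast cell list, Cpa3 was 0.539 in replicate 2, while Fcer1a, Tpsb2 and Cma1 were listed at 0 in all BMDM libraries. All 5 genes of that list with a mean FPKM of at least 0.1 in BMDM were at least 2-fold higher in replicate 2, beside 13.1% of all genes. Most of the sum in replicate 2 came from markers not named here. Dendritic cell markers were not highest in replicate 2, with sums of 18.2, 12.7 and 24.9 that include Flt3 itself, nor were those of megakaryocytes, with 0.741, 0.892 and 7.15. T and NK cell markers summed to at most 1.00. Stromal markers summed to at most 0.115 in BMDM. The part of these other cells in the values of Kit, Myb and Gfi1 was not tested, nor was that of RNA amount or the share of mapped reads.

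**Figure D4:**
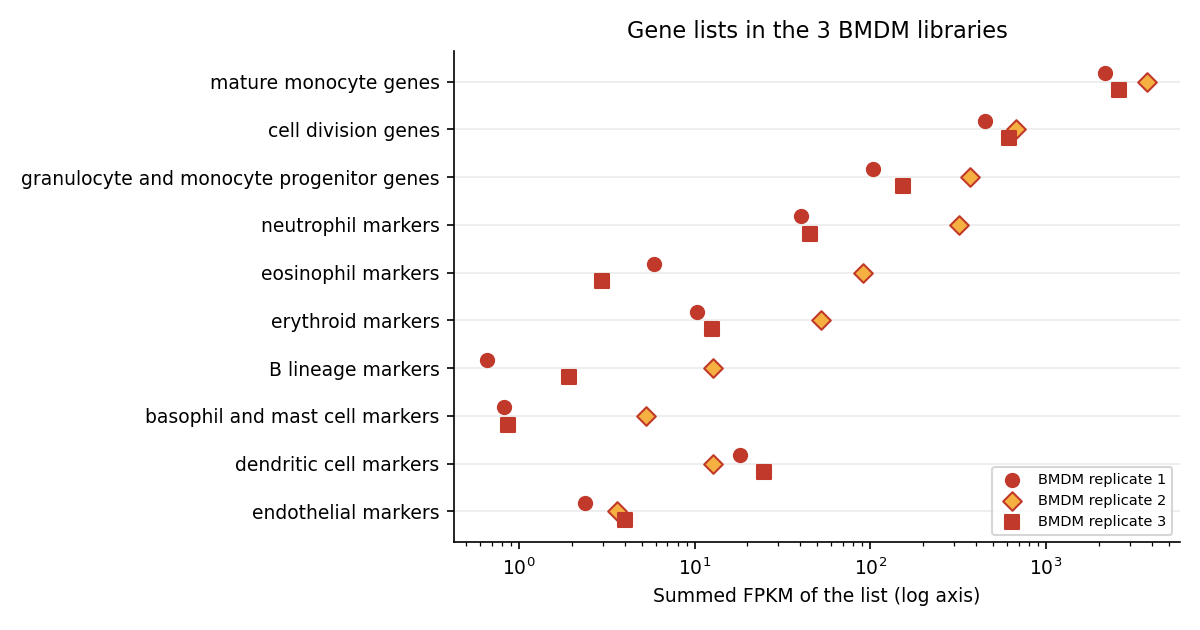
Summed FPKM of each gene list in the 3 BMDM libraries, on a log axis. Replicate 2 (orange) lies far to the right of the other libraries for neutrophil (321.4 against 40.5 and 45.1), eosinophil, erythroid, B lineage and basophil and mast cell markers, and close to them for cell division genes and endothelial markers.

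Cell division was a property of all BMDM libraries rather than of replicate 2 alone. Of 25 cell division genes found, 23 were tested and all 23 were higher in BMDM, beside 45.3% of all genes tested. Their median log2 difference was 3.57, beside 0.81 over all genes tested. All 23 also passed without BMDM replicate 2, where 2313 of 6364 genes were called higher in BMDM. Mki67, a protein of cycling nuclei, was 131.0, 86.6 and 145.9 in BMDM, and at most 0.308 in BSM. It was lowest in replicate 2, unlike Kit, Myb and Gfi1, but most of the list went the other way. Of the 25 genes, 16 were higher in replicate 2 than in both other BMDM libraries. The median log2 difference of replicate 2 over the list was 0.56, beside 0.16 for all genes. The sum over the list was 448.1, 676.1 and 621.0 in BMDM, and 5 of the 25 genes were at least 2-fold higher in replicate 2, beside 13.1% of all genes.

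Other genes of stem and early progenitor cells were mostly too low to test. Of 30 such genes found, 21 did not reach an FPKM of 3, and among the 9 tested only Cd48 was higher in BMDM, only Gpr56 was higher in BSM, and 7 did not pass, where 45.3% and 9.22% of all genes tested were called. Cd48, an antigen that is low on stem cells and present on committed progenitors and most leukocytes, was 27.8, 29.3 and 34.3 in BMDM and 1.55, 6.48 and 4.80 in BSM. Gpr56, an adhesion receptor of stem cells and microglia, was at most 0.0312 in BMDM and 9.32, 5.67 and 4.57 in BSM. Runx1, a factor required for the first blood stem cells, was 8.45, 8.24 and 9.87 in BMDM and 8.09, 9.65 and 10.2 in BSM, and these ranges overlapped. The factors Hoxa9 and Mecom, both characteristic of stem cells, were at most 0.0283 in BMDM. In replicate 2, Erg was 1.62 (0.401 and 0.527 in replicates 1 and 3) and Prom1 was 1.5 (0.276 and 0.25), so that both were highest there as Kit was, and over the list 6 of 19 genes were at least 2-fold higher and 3 were 2-fold lower in replicate 2, beside 13.1% and 9.53% of all genes.

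The genes whose levels followed those of Kit, Cd34 and Met most closely were ranked by Pearson's r of log2(FPKM + 0.1) over the 6 libraries, among 12787 genes. As most of that variation is between the cell types, r is high for many genes and no p is given. The genes were picked for likeness over these same libraries, so the shared patterns given below follow from the selection. For Kit these were ENSMUSG00000082458, which has no symbol in the table (0.394, 1.74 and 0.710 in BMDM), Adamts3, a procollagen protease (0.174, 0.510 and 0.241), and Rnf43, a ubiquitin ligase of Wnt receptors (0.379, 1.53 and 0.535). All 3 shared the high value in BMDM replicate 2 and were at most 0.00811 in BSM. For Cd34 these were Yes1, a Src family kinase, with 0.978, 2.75 and 3.22 in BSM, then Hspa5, an endoplasmic reticulum chaperone, with 143.0, 192.5 and 223.6, and Trove2, an RNA-binding protein, with 0.526, 0.845 and 1.03. Each was lowest in BSM replicate 1, as Cd34 was. For Met these were Plxnc1, a semaphorin receptor, Plekhg1, and Slc25a24, a mitochondrial carrier, all highest in BMDM replicate 3 (2.43, 3.59 and 6.02).

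BSM replicate 1 bears on the lower ends of the microglia values. In it Kit, Cd93, Met, Myb, Gata2 and Gfi1 were listed at 0, and Cd34, Sox4 and Meis1 were at 0.444, 0.50 and 0.129 times the mean of the other BSM libraries. Flt3 was the exception, at 2.66 times that mean. Without BSM replicate 1 the differences were -2.83 for Cd34 and -2.29 for Sox4 (limma adjusted p = 0.000129 and 0.000142), and those of Met, Cd93 and Myb were 2.81, 2.78 and 2.19 (limma adjusted p = 0.000175, 0.000290 and 0.00583). The low RNA concentration and integrity of that library moved with these values, and their part in them was not tested. Replicate 1 is also the male replicate of both cell types, and within BSM and within BMDM sex and library cannot be told apart.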

How the data were processed

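RNA-Seq of flow-sorted BMDM and BSM was analysed, with 3 libraries each. The authors aligned 100 basepair paired reads and deposited gene FPKM from Cufflinks. The submitters' processing notes name mm9, CASAVA 1.7.0, Bowtie 0.12.7, TopHat 1.3.1 and Cufflinks 1.0.3. The authors also deposited an ALEXA-Seq expression signal for each gene, whose unit and scaling are not given in the sources used here. Read totals of the libraries are listed by the study and described there as similar. The share of reads mapped was lowest in BMDM replicate 2. Neither table holds read counts, so the reads behind each value are not known, and no counting interval or floor is given. Starts in the files are counted from 0 and are given here from 1. Groups, replicate numbers and sex came from the sample labels. Replicate 1 is male and the others female in both groups, as in the study's RNA table, whereas the text of the study names male mice alone. The labels name no shared animal, batch or day.

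FPKM were compared with limma 3.58.1 in R 4.3.3 (moderated by empirical Bayes, variance allowed to trend with the mean). The values entered as log2(FPKM + 1). The main test took 6364 genes, each reaching an FPKM of 3 in some library, with Benjamini-Hochberg adjustment over all of them and a threshold of 0.05. These differences understate the change of low genes. A second test took genes reaching 1. For ALEXA-Seq the same number of genes, ranked by highest value, entered as log2(value + 1), a scale on which differences are not comparable in size with those of FPKM. The model was tested on simulated data with known changes. BMDM replicate 2 was compared with the mean of replicates 1 and 3 on log2(FPKM + 0.1). Python 3.11.15, pandas 2.3.3 and scipy 1.17.1 were used. The alternatives were other pseudocounts, expression limits, scalings, weights, the replicate block and the omission of each library.

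The 10 genes and the gene lists were chosen with earlier results of these data known, and the astrocyte, neuron and oligodendrocyte lists were added after values had been seen. The genes named are the 10, genes of the lists that bear on them, and the 3 genes closest to Kit, Cd34 and Met by Pearson's r. Other genes of the lists were named after their values were seen. Flt3l and Irf8 were not matched in the FPKM table, and their levels are not analysed here. The Exon arrays were not used here. The study describes the libraries as independently made biological replicates of pooled cells, so p-values measure the spread between pools.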

Additional observations from a re-analysis of the deposited data

How the results depend on the processing

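Met, Cd93, Myb, Cd34 and Sox4 kept their direction and passed the limma test under all 15 alternatives on FPKM and all 11 on ALEXA-Seq values. Over the 10 genes, 3 were higher in BMDM with an FPKM limit of 3 and 5 with a limit of 1. In ALEXA-Seq values 3 were higher in BMDM among the 6364 highest genes and 5 among all genes above 0. With single libraries left out, the count was 3 at the higher FPKM limit and 4 to 5 at the lower, and in ALEXA-Seq 3 to 4 and 3 to 5. The genes called numbered 3470 on FPKM, and 2498 to 3932 with single libraries left out. They numbered 3050 on ALEXA-Seq values, and 1971 without BMDM replicate 3 to 3984 without BSM replicate 1. With the expression limit lowered and 1 further choice changed, combinations chosen after seeing the data, Meis1 turned from 0.31 to -0.25 (quantile normalization) and -0.27 (same sum) on FPKM. On ALEXA-Seq values it turned from 0.65 to -0.13 (quantile normalization), -0.42 (same sum) and -0.054 (without BSM replicate 1). The cause was not tested.

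Replicate numbers are shared by the groups, but same-numbered libraries deviated together little (r = -0.02, -0.01 and 0.13 over FPKM). Differently numbered libraries had r from -0.11 to 0.07, so the pair of replicates 3 was the highest of all pairs. With the replicate block 3471 genes were called, the calls of the 5 genes tested did not change, and Kit no longer passed (limma adjusted p = 0.0589 on FPKM and 0.0518 on ALEXA-Seq values). On ALEXA-Seq values Kit passed in 5 of 9 alternatives and also lost its call without BMDM replicate 3, BSM replicate 2 or BSM replicate 3 (limma adjusted p = 0.0817 to 0.101, differences 3.30 to 3.44). Flt3 passed in 2 of 9 and lost its call under the block (limma adjusted p = 0.0616, difference 3.04 as without it), without BMDM replicate 2 or 3 or BSM replicate 2 or 3 (0.0701 to 0.104, differences 2.78 to 3.07) and with either rescaling (0.0911 and 0.0643, differences 2.40 and 2.13).

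The median difference of BMDM replicate 2 was 0.25, and 0.01 against replicate 3 alone and 0.43 against replicate 1 alone, so that it rests on the low values of replicate 1. At a pseudocount of 1 it was 0.15, and Kit was no longer 2-fold higher (0.76). The reads behind each value are not known, which limits values near 0 most.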
